A study of Mus musculus with 32 samples.

Results

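The genes described here are the cytokine interleukin-6 and the genes of the receptors, kinase, transcription factor and feedback inhibitors through which it and its relatives act: Il6, Il6st, Il6ra, Osmr, Lifr, Jak1, Stat3, Socs1 and Socs3. They were chosen by name, as the probes that the array's own annotation assigns to these symbols. They are 9 of 34836 gene names on the array and are read by 12 of 55681 probes. All 9 passed the filter on dim probes, but Il6 passed only through the standard-diet groups after hepatectomy, with and without agonist, in which all 4 arrays were well above background.

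Gene expression was measured with one-colour oligonucleotide arrays in 32 livers of male C57/BL6 mice, 1 array per liver and 4 livers per group. The question was how a dual agonist of the GLP-1 receptor (GLP1R) and the glucagon receptor (GCGR) acts on a liver made fatty and inflamed by a methionine- and choline-deficient (MCD) diet, and on a liver that regrows after surgery. Baseline groups were 4: mice on standard diet, mice on MCD diet for 3 weeks, and mice on either diet given the agonist for 2 weeks, at 4.4 mg/kg/day every 2 days. The other 4 groups had these diets and treatments before and after removal of 70% of the liver (partial hepatectomy). They were sampled 2 weeks after it, so they also had more weeks of diet and agonist. The labels of the standard-diet group with agonist after hepatectomy say chow diet, which was taken as the standard diet. All mice were of 1 strain and no genotype was compared.

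Cytokines of this family bind a receptor of their own, IL-6 receptor alpha for IL-6, the oncostatin M receptor for oncostatin M and the LIF receptor for leukaemia inhibitory factor, and signal through the shared chain gp130, which Il6st encodes. Janus kinases bound to gp130 then phosphorylate STAT3, which enters the nucleus and switches on acute phase genes in hepatocytes together with Socs3, whose product blocks gp130 and the kinases and so ends the signal. In the liver the pathway is known for the acute phase response and for priming hepatocytes to divide after hepatectomy, with much of the IL-6 made by Kupffer cells, the resident macrophages.

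The 3 probes of Lifr are shown because they read 2 transcript variants and are described one by one. Each probe has 60 bases, of which the first 30 are printed, 5′ to 3′. All lie on the plus strand of chromosome 15 (mm9, as the files give it). Positions within exons or untranslated regions were not looked up.
Lifr, transcript variant 2 probe, chr15:7135072-7135131: taaaaacttggaaatgtatccaggcctaac
Lifr, transcript variant 1 probe upstream, chr15:7141150-7141209: agaacaaaccaaatgactaaccaggtcacc
Lifr, transcript variant 1 probe downstream, chr15:7147319-7147378: catagatgatgtaaatagcctaagacactg

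Promoters were read from RefSeq sequence (GRCm38.p6), as windows of 250 bases before to 50 after each start, and searched for the letters TTCNNNGAA, the core to which STAT proteins are known to bind, which reads the same on both strands. It stood in 1 of the 10 windows of the 9 genes, that of Socs3. Among 32851 windows of full length, a count that leaves out 1 chromosome, 8.3% held it. The Socs3 site spans the bases 154 to 146 before the start. The 250 bases before the start of Socs3 are printed with the match in capitals, beside those of Osmr, which, like Socs3, rose with agonist on standard diet at baseline and which holds no match in this window.
Socs3, chr11:117969367-117969616, minus strand: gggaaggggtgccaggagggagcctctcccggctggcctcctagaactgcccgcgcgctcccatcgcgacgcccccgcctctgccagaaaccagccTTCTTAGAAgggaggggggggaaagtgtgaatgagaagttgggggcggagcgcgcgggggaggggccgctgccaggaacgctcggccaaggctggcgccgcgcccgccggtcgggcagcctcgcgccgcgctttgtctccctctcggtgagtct
Osmr, chr15:6874314-6874563, minus strand: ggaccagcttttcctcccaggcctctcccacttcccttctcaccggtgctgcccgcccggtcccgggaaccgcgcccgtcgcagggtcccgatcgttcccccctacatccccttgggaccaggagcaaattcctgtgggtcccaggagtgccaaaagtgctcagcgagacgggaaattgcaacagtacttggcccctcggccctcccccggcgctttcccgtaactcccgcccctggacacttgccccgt

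Levels are log2 of the scanner's processed signal minus the array's 75th percentile, so 0 is a signal at that percentile, and levels of different genes cannot be set against each other because probes differ in brightness. Changes are log2 differences of group means ± SE from one limma fit over the 8 groups. "Rose" and "fell" are used where the Benjamini-Hochberg adjusted p over 21730 genes was under 0.05. Per array, 44.4% to 69.7% of probes were well above background, and the number of arrays limits the precision. RNA came from whole liver, where fewer cells of a type and less RNA per cell cannot be told apart. Each of the 4 slides carried 2 groups, 1 to a row. The diet comparisons at baseline and the agonist comparisons after hepatectomy lie within a slide, where a row effect cannot be told apart from the group. The other comparisons of 2 groups run across slides, and those of hepatectomy also across 2 scanners, so slide and group cannot be told apart. Of 8 hepatocyte markers listed, 7 were matched on the array by name, and all 7 passed the filter on dim probes.

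The deposited files disagree on which livers belong to 4 of the 8 groups. Groups here are those of the scanner files. In the deposited table of processed values, 16 of 32 columns matched the scanner array of another group best: the columns of MCD livers matched arrays of standard-diet livers with agonist, and the reverse, at baseline and after hepatectomy. If the table's assignment held, the diet values without agonist given here would be agonist values on standard diet and the reverse, and the diet values under agonist would be agonist values on MCD diet and the reverse, the hepatectomy values on MCD diet and on standard diet with agonist would change places, and the interactions would stay as they are. Under the scanner files' groups Scd1, a fatty acid desaturase that this diet is known to lower, had mean levels of 7.36 on standard diet, 7.61 on standard diet with agonist, 4.93 on MCD diet and 3.16 on MCD diet with agonist at baseline, low in both groups labelled MCD. Outlier spots were left out, and the mean of 7.61 does not cover every array of its group. The summed log2 level of 4 genes that include Scd1 averaged 6.54 there, too low for Scd1 to be present on all arrays. Asns, a gene of the amino acid stress response, was higher on MCD diet by 5.29 without and 1.59 with agonist (adjusted p = 8.88e-10 and 0.00825). After hepatectomy the MCD diet change of Scd1 was -2.79 without and -3.28 with agonist.

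Some livers stood apart from their groups. Replicate 1 after hepatectomy on standard diet and replicate 4 after hepatectomy on standard diet with agonist had more macrophage and bile duct marker signal than their group mates. The summed level of the 9 recruited macrophage markers was 7.37 in the first (4.08 to 5.03 in the others) and 6.66 in the second (4.38 to 4.82). The sum of the 5 tested cholangiocyte markers, with Cftr not tested, was 5.70 (1.72 to 2.85) and 4.92 (1.78 to 2.27), while the 7 hepatocyte markers summed to 11.25 (11.55 to 11.98) and 11.49 (11.56 to 12.36). One gene, Spp1, is in both the macrophage and the cholangiocyte list. Replicate 1 on standard diet with agonist at baseline had the highest neutrophil sum of its group, 4.85 (2.77 to 4.05), with recruited macrophage markers inside the group's range. Replicate 2 of that group had a stellate cell and fibroblast sum of 2.99 (6.03 to 7.41 in the others). Sums leave out genes whose spots were flagged as outliers on an array, so a sum can cover fewer genes there. Whether this lies behind the low sum of replicate 2 was not looked up. Member values without each of these livers are given where the call changes, and some counts of gene lists are given without them, an alternative chosen after seeing the data.

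Of 126 values, 9 genes in 14 comparisons, 24 passed, and 1 gene, Il6ra, passed in no comparison. Il6 entered the test through its high groups, standard diet after hepatectomy without and with agonist, so its calls against those groups support nothing in these counts. Comparisons that use the same group of livers share its errors and are not independent. At baseline without agonist, MCD diet raised Il6 and Jak1 and lowered Lifr, 3 of 9 genes (33.3%), close to the 26% of all genes that passed. With agonist, MCD diet lowered Il6st, Osmr, Lifr, Stat3 and Socs3, 5 of 9 (55.6%) against 15.2% of all genes, with a median change over the 9 of -1.01 against 0.03 over all genes. The agonist on standard diet raised Osmr, Socs1 and Socs3, 3 of 9 (33.3%) against 6.52%, with a median of 0.67 against -0.01. Without replicate 1 of the agonist group Osmr (1.24), Socs1 (1.19) and Socs3 (1.20) all did not pass (adjusted p = 0.173, 0.195 and 0.168). In that fit 2.25% of all genes passed. The agonist on MCD diet lowered Il6st alone, 1 of 9 (11.1%) against 13.3%.

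The agonist's effect differed between the diets at baseline for Il6, Il6st, Osmr and Socs3, 4 of 9 (44.4%) against 11.1% of all genes. For each of them the diet by agonist interaction was below 0: the agonist raised the gene more, or lowered it less, on standard than on MCD diet. The median interaction was -1.26 over the 9 genes and 0.18 over all genes. These interactions are differences of differences within 2 slides, from which an effect that is the same for all arrays of a slide drops out.

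**Figure D1:**
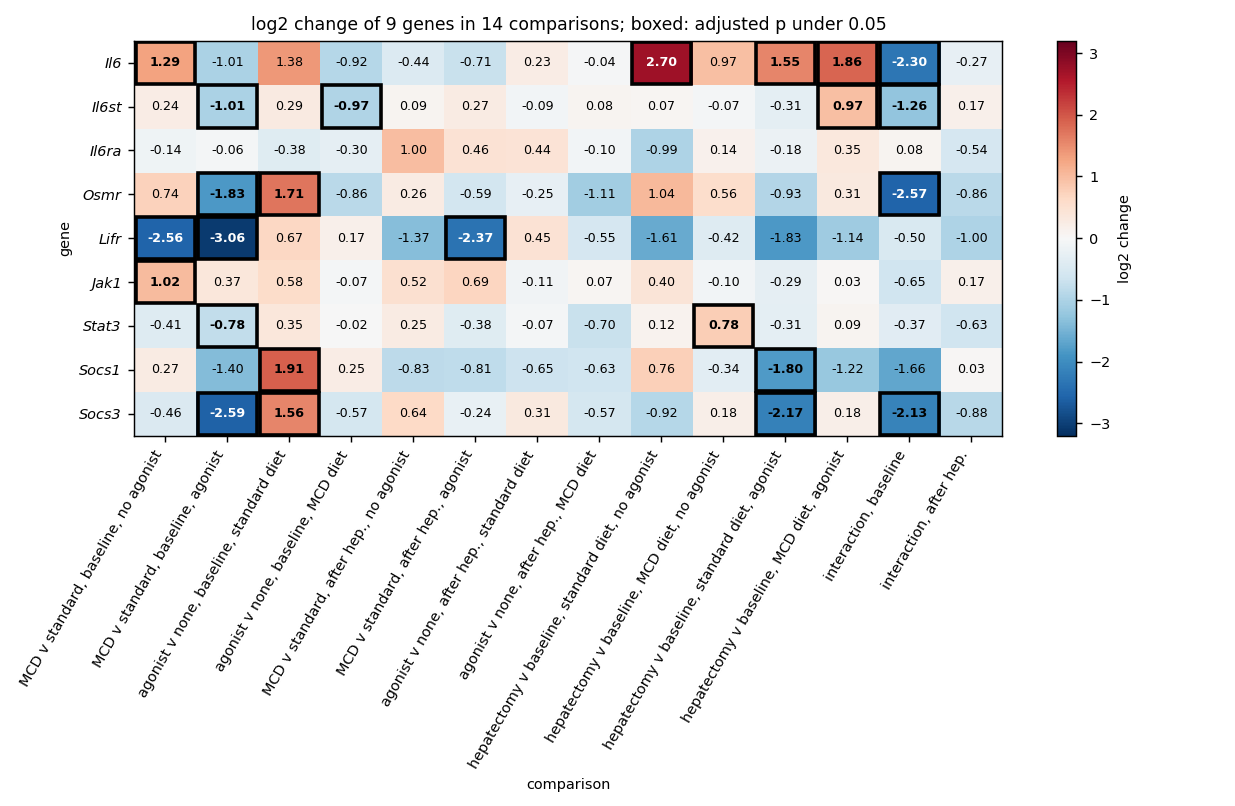
Log2 change of the 9 genes (rows) in the 14 comparisons (columns), with red for higher and blue for lower in the first-named group and boxes around the values with an adjusted p under 0.05. The boxes crowd into the baseline comparisons and those with standard diet and agonist, where Socs3 changed by 1.56, -2.59 and -2.17, and none stands in the agonist columns after hepatectomy.

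After hepatectomy few values passed. MCD diet without agonist moved 0 of 9 genes (11.5% of all genes passed), with 2 at an unadjusted p under 0.05, Il6ra and Lifr. MCD diet with agonist lowered Lifr, read by its variant 2 probe, 1 of 9 against 8.23%. The agonist moved 0 of 9 on standard diet, where 0.0092% of all genes passed and no member had an unadjusted p under 0.05. On MCD diet it moved 0 of 9 as well, with 0.405% of all genes passing, and Osmr and Stat3 had an unadjusted p under 0.05. The interaction after hepatectomy passed for 0 of 9 genes and for 0.0046% of all genes, with 0 members at an unadjusted p under 0.05.

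Hepatectomy against baseline raised Il6 on standard diet, 1 of 9 against 13.7% of all genes, and Stat3 on MCD diet, 1 of 9 against 9.43%. With agonist on standard diet Il6 rose while Socs1 and Socs3 fell, 3 of 9 against 7.34%. With agonist on MCD diet Il6 and Il6st rose, 2 of 9 (22.2%) against 10%.

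**Figure D2:**
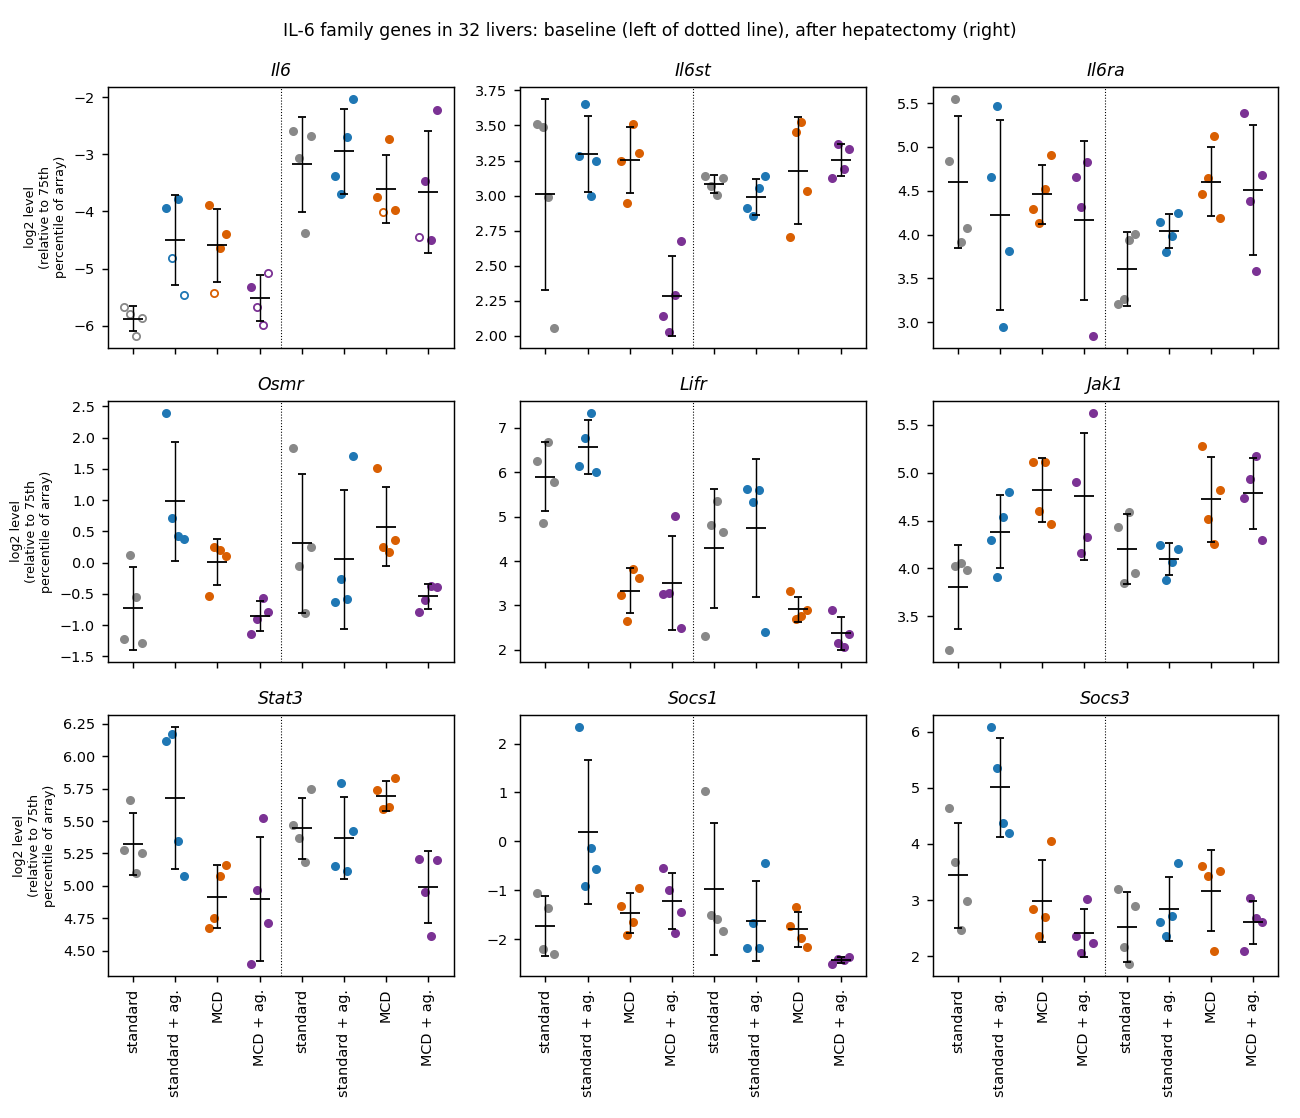
Level of each gene in 32 livers (1 panel per gene, each with its own axis), by diet and agonist (ag.), with baseline groups left and groups after hepatectomy right of the dotted line. Points are livers, open where the probe was not well above background, and bars are the mean and SD of 4 livers. The standard-diet agonist group at baseline is the highest for Socs3 (mean 5.01) and the MCD agonist group at baseline is the lowest for Il6st (mean 2.28).

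Il6 encodes the cytokine itself. Its probe was dim: at baseline on standard diet it read -5.68, -5.79, -6.18 and -5.86 and was not well above background on any of the 4 arrays. After hepatectomy on standard diet it read -2.59, -3.06, -4.38 and -2.68, all well above background and all higher than at baseline. The difference was at least 3.27-fold (adjusted p = 0.000617), which sets the livers after hepatectomy against the lowest measurable signal of the baseline arrays. Il6 had entered the test through this group, where it is high, so that p is no independent support. With dim probes kept, so that no gene entered through a group, the adjusted p was 0.00119.

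On MCD diet at baseline Il6 read -3.90, -5.43, -4.64 and -4.40, all above the standard-diet livers, with 3 of 4 arrays well above background. That rise was at least 1.23-fold (adjusted p = 0.0439). It did not pass with dim probes kept (adjusted p = 0.0573), nor when any 1 of 7 of the 8 livers was left out, with adjusted p from 0.0622 to 0.134 in those fits, and replicate 2 on MCD diet was the exception.

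With the agonist at baseline Il6 read -3.94, -4.82, -3.78 and -5.46 on standard diet and -5.32, -5.67, -5.99 and -5.09 on MCD diet. The agonist change of 1.38 ± 0.47 on standard diet (at least 1.31-fold, adjusted p = 0.0740) and that of -0.92 ± 0.47 on MCD diet (adjusted p = 0.190) did not pass, and their difference did, at -2.30 ± 0.67 (adjusted p = 0.0248). It has no measured level behind the untreated standard-diet group. It did not pass without replicate 1 on MCD diet (-2.07), replicate 1 or 3 on standard diet with agonist (-2.12 and -2.06) or replicate 3 on MCD diet with agonist (-2.14).

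After hepatectomy with agonist Il6 read -3.38, -3.70, -2.69 and -2.03 on standard diet and -4.45, -3.46, -4.49 and -2.22 on MCD diet. Both groups lay wholly above their agonist-treated baseline groups, and the rises were 1.55 ± 0.47 (adjusted p = 0.0421) and 1.86 ± 0.47 (adjusted p = 0.0133). Of the baseline arrays only 2 of 4 on standard diet and 1 of 4 on MCD diet were well above background, so these sizes rest in part on dim signals. The standard-diet group after hepatectomy is one through which Il6 entered the test, and with dim probes kept its rise did not pass (adjusted p = 0.0616). On standard diet the rise did not pass without replicate 2 or 4 at baseline (1.44 and 1.23) or without replicate 1, 3 or 4 after hepatectomy (1.69, 1.47 and 1.24), and on MCD diet it did not pass without replicate 4 after hepatectomy (1.38, adjusted p = 0.0713). In MCD livers without agonist Il6 read -3.74, -4.01, -2.74 and -3.97 after hepatectomy, a change of 0.97 ± 0.47 that did not pass (adjusted p = 0.205). Under normexp background correction none of these Il6 changes passed: hepatectomy on standard diet gave 0.15 without and 0.05 with agonist, and the sign turned for MCD diet at baseline (-0.35), the interaction (0.16) and hepatectomy on MCD diet with agonist (-0.22).

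Il6st encodes gp130, the signalling chain that the whole family shares. The means of 7 of the 8 groups lay between 2.99 and 3.30. In the MCD agonist group at baseline it read 2.14, 2.02, 2.29 and 2.67, a mean of 2.28 ± 0.28 (SD), the lowest of all groups. Untreated standard-diet livers at baseline read 3.51, 3.49, 2.99 and 2.05, and replicate 4 lay inside the range of the MCD agonist livers. Livers on MCD diet without agonist read 3.25, 2.95, 3.51 and 3.31, and livers on standard diet with agonist read 3.28, 3.65, 3.00 and 3.25. Neither of these 2 groups overlapped with the MCD agonist livers.

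The agonist lowered Il6st on MCD diet by 0.97 on the log2 scale (SE 0.24, adjusted p = 0.0102), which is 1.96-fold. MCD diet lowered it under agonist by 1.01 (SE 0.24, adjusted p = 0.00495). On standard diet the agonist change was 0.29 ± 0.24 (adjusted p = 0.537, 95% interval -0.21 to 0.78), and the interaction of -1.26 ± 0.35 passed (adjusted p = 0.0187).

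After hepatectomy the low level was gone: Il6st read 3.13, 3.37, 3.19 and 3.33 in MCD livers with agonist, all above the baseline livers of that diet and treatment, a rise of 0.97 ± 0.24 (adjusted p = 0.0124). The fall with agonist on MCD diet and this rise passed under every alternative run, including each liver left out in turn. The fall with diet under agonist passed in all but the fit of the compared groups alone and the deposited table (adjusted p = 0.0509 there), and the interaction in all but the fit of the compared groups alone.

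Il6ra encodes the receptor chain that binds IL-6 itself, made in the liver mainly by hepatocytes. It passed in none of the 14 comparisons. Its lowest group was standard diet after hepatectomy, at 3.21, 3.27, 3.94 and 4.01, and its highest MCD diet after hepatectomy, at 4.46, 4.65, 5.12 and 4.19, with no overlap. That difference was 1.00 ± 0.45 (95% interval 0.08 to 1.92, adjusted p = 0.156). Hepatectomy on standard diet changed it by -0.99 (adjusted p = 0.137), and under normexp background correction that fall passed (-1.33, adjusted p = 0.0389). At baseline its livers spread widely, from 2.95 to 5.47 on standard diet with agonist, and the 4 diet and agonist changes there ran from -0.38 to -0.06.

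Osmr encodes the receptor chain for oncostatin M, the cytokine that macrophages and neutrophils release and that hepatocytes and stellate cells answer. On standard diet at baseline it read -1.23, 0.13, -0.54 and -1.29 without agonist and 2.40, 0.72, 0.43 and 0.39 with it. All treated livers were higher than all untreated ones, and replicate 1 of the treated group was far above the others. The rise was 1.71 ± 0.50 (adjusted p = 0.0377), 3.28-fold. It did not pass without replicate 1, 3 or 4 of the untreated group (1.55, 1.78 and 1.53) or without replicate 1 or 3 of the treated group (1.24 and 1.90), with adjusted p from 0.0517 to 0.173.

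On MCD diet at baseline Osmr read -0.53, 0.25, 0.20 and 0.12 without agonist and -1.14, -0.90, -0.56 and -0.79 with it. Every treated liver was lower, but the change of -0.86 ± 0.50 did not pass (adjusted p = 0.253). The interaction was -2.57 ± 0.70 (adjusted p = 0.0183), and it passed under every alternative, between -3.10 and -2.10. Between the diets under agonist Osmr fell by 1.83 on the log2 scale (SE 0.50, adjusted p = 0.0121), 3.56-fold, with no overlap. Without replicate 1 of the standard-diet agonist group that fall was -1.36 (adjusted p = 0.0715).

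After hepatectomy single livers set the Osmr means. On standard diet it read 1.84, -0.05, -0.81 and 0.25 without and -0.63, -0.27, -0.58 and 1.71 with agonist, the high values being those of the livers with high macrophage markers. On MCD diet it read 1.51, 0.26, 0.17 and 0.36 without and -0.79, -0.59, -0.37 and -0.39 with agonist, so that all treated livers were lower, by 1.11 on average (95% interval -2.13 to -0.09, adjusted p = 0.317). Without the 2 livers that stand apart, an alternative chosen after seeing the data, hepatectomy lowered Osmr on standard diet with agonist by 1.48 (adjusted p = 0.0353), against -0.93 ± 0.50 with them (adjusted p = 0.254). The liver left out of the agonist group had its highest Osmr value, 1.71, so leaving it out widens the fall by itself and gives no independent support. The part of the macrophage signal in these levels was not tested.

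**Figure D3:**
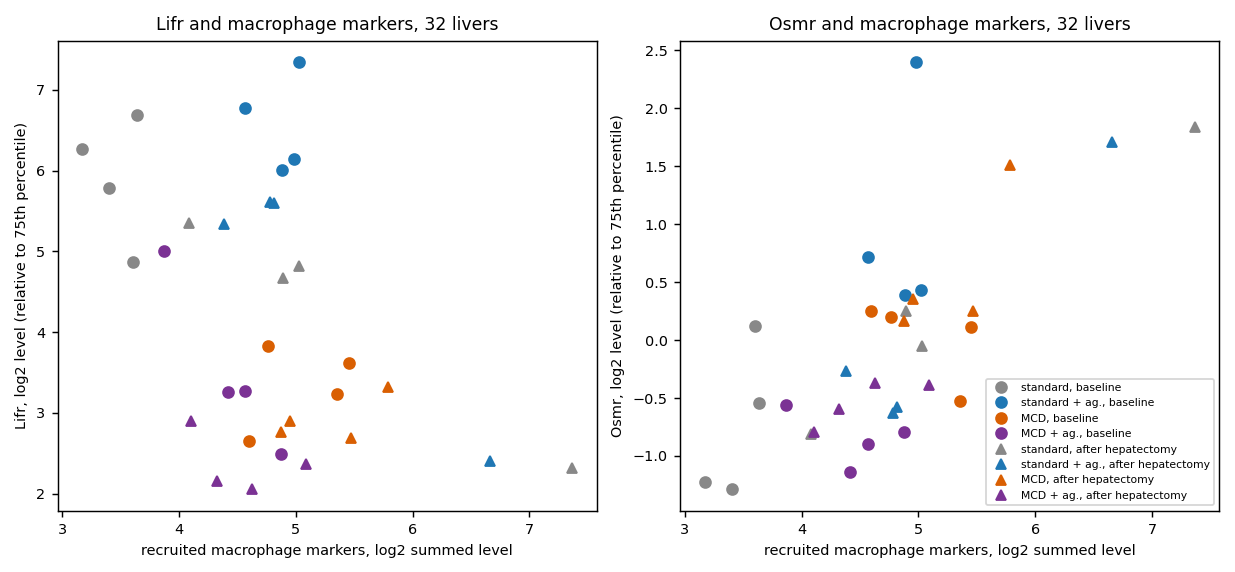
Level of Lifr (left) and Osmr (right) against the summed log2 level of 9 recruited macrophage markers, 1 point per liver, circles at baseline and triangles after hepatectomy, coloured by diet and agonist (ag.). The 2 rightmost livers, at 6.66 and 7.37, are the standard-diet livers after hepatectomy with Lifr at 2.41 and 2.32 and Osmr at 1.71 and 1.84.

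Lifr encodes the receptor chain for leukaemia inhibitory factor, which also serves ciliary neurotrophic factor and of which the mouse makes a shorter, secreted form as well. The largest fall of the 9 genes was that of Lifr on its variant 2 probe. Whether this probe reads the secreted form was not looked up, so its falls are those of a transcript variant. On the variant 2 probe, the brightest of the 3 printed above, standard-diet livers at baseline read 6.27, 4.87, 6.69 and 5.79 and MCD livers 3.24, 2.66, 3.83 and 3.62. The groups lay apart, and Lifr fell by 2.56 on the log2 scale (SE 0.61, adjusted p = 0.00289), 5.92-fold.

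Under agonist the diet difference was of similar size. Standard-diet livers read 6.15, 6.78, 7.34 and 6.01 and MCD livers 3.26, 3.27, 5.01 and 2.49, again with no overlap, and Lifr fell by 3.06 (SE 0.61, adjusted p = 0.000987), 8.35-fold. Both falls passed under every alternative, none of which scored the downstream variant 1 probe on its own. The agonist itself changed Lifr by 0.67 ± 0.61 on standard diet and 0.17 ± 0.61 on MCD diet, and the interaction of -0.50 had a 95% interval of -2.26 to 1.27, so a difference of 2-fold either way stays within it.

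After hepatectomy the 2 livers that stand apart weighed on Lifr. Standard-diet livers read 2.32, 4.81, 5.35 and 4.67 without agonist and 5.61, 5.33, 5.60 and 2.41 with it, while MCD livers read 3.32, 2.69, 2.76 and 2.90 without and 2.90, 2.16, 2.06 and 2.37 with it. Except for the 2 low standard-diet livers the diets did not overlap. The diet difference was -1.37 ± 0.61 without agonist (adjusted p = 0.150) and -2.37 ± 0.61 with it (adjusted p = 0.0136). Without those 2 livers it was -2.03 ± 0.44 (adjusted p = 0.00213) and -3.15 ± 0.44 (adjusted p = 2.58e-05), an alternative chosen after seeing the data. Each was the lowest liver of its group for Lifr, so leaving them out widens the difference by itself and gives no independent support. With all livers kept, the call with agonist was lost without replicate 1, 2 or 3 of the standard-diet agonist group (-2.08, -2.17 and -2.08).

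On the variant 2 probe hepatectomy lowered the Lifr mean on standard diet by 1.61 without (adjusted p = 0.0738) and 1.83 with agonist (adjusted p = 0.0628), neither of which passed. Without the 2 livers these values were -0.96 (adjusted p = 0.181) and -1.05 (adjusted p = 0.171). On MCD diet the changes were -0.42 ± 0.61 and -1.14 ± 0.61. On standard diet without agonist the hepatectomy change of the upstream variant 1 probe, -1.62, passed (adjusted p = 0.039 over all probes). That probe was not fitted without the 2 livers. The downstream variant 1 probe gave -0.47 there (adjusted p = 0.515). With agonist on standard diet these probes gave -1.36 and -0.90 (adjusted p = 0.11 and 0.219), and on MCD diet neither passed.

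The variant 1 probes gave a mixed picture. The upstream one read -0.11, 0.49, 2.00 and 1.14 on standard diet and -1.17, -1.64, -0.84 and -1.37 on MCD diet at baseline and fell by 2.14 (SE 0.52, adjusted p = 0.00379 over all probes). The downstream one read 3.02, 3.64, 4.90 and 3.50 against 2.61, 2.89, 3.63 and 2.89, groups that overlapped, with a change of -0.76 ± 0.45 (adjusted p = 0.219). Under agonist at baseline both fell with the diet, by 1.66 (adjusted p = 0.0294) and by 1.47 (adjusted p = 0.0259). After hepatectomy the diet changes of the upstream and the downstream probe were -0.35 and -0.69 without agonist (adjusted p = 0.731 and 0.352). With agonist they were -0.87 and -0.57 (adjusted p = 0.34 and 0.49), and none of these passed.

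The variant 2 level minus the downstream variant 1 level within an array was 2.14 ± 0.86 (SD) on standard diet and 0.33 ± 0.44 on MCD diet at baseline. That ratio changed by -1.81 (exact permutation test, two-sided, p = 0.0286, the smallest that 4 against 4 livers allow). Under agonist it changed by -1.59 at baseline and by -1.80 after hepatectomy, each again with the exact p = 0.0286, and without agonist after hepatectomy by -0.68 (exact p = 0.114). Over the 8 such tests, which include the upstream probe and were chosen after the values were seen, the lowest Benjamini-Hochberg adjusted permutation p was 0.0572, so none passed. The ratio to the upstream probe changed by -0.43 at baseline without agonist (exact p = 0.543).

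**Figure D4:**
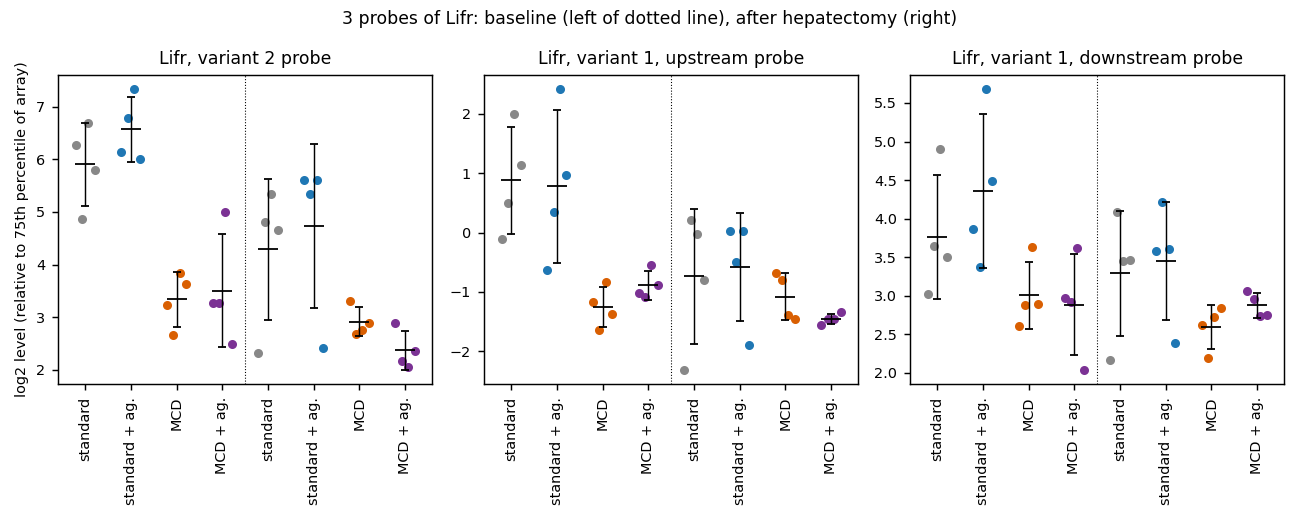
Level of Lifr on its 3 probes (panels, each with its own axis) in 32 livers, baseline left and after hepatectomy right of the dotted line, with the mean and SD of 4 livers per group of diet and agonist (ag.). The variant 2 probe separates the diets at baseline (means 5.90 and 3.34 without agonist) more than the downstream variant 1 probe does (means 3.76 and 3.00).

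Jak1 encodes the Janus kinase that is held to be the main one under gp130. It read 3.15, 4.02, 4.06 and 3.98 on standard diet at baseline and 5.11, 4.60, 5.11 and 4.46 on MCD diet. All MCD livers were higher, and Jak1 rose by 1.02 ± 0.30 (adjusted p = 0.0121), 2.02-fold. Without replicate 1 on standard diet, the lowest liver of all 32, the change was 0.80 (adjusted p = 0.0609), and it was 0.85 under normexp (adjusted p = 0.0785) and 0.84 in the deposited table (adjusted p = 0.221). In the other diet comparisons Jak1 also had a higher mean on MCD diet, by 0.37, 0.52 and 0.69, and none of these passed.

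Stat3 encodes the transcription factor at the end of the cascade, and its transcript says nothing of its phosphorylation. Its group means spanned only 4.90 to 5.69. Under agonist at baseline it read 6.12, 6.17, 5.34 and 5.08 on standard and 4.39, 4.96, 5.53 and 4.71 on MCD diet, groups that overlapped, and it fell by 0.78 on the log2 scale (SE 0.25, adjusted p = 0.0317), 1.71-fold. This fall did not pass without replicate 1 or 2 on standard diet (-0.63 and -0.61) or replicate 1 or 4 on MCD diet (-0.61 and -0.72).

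After hepatectomy on MCD diet without agonist Stat3 read 5.74, 5.59, 5.61 and 5.83 against 4.67, 4.75, 5.08 and 5.16 at baseline. The groups lay apart and it rose by 0.78 ± 0.25 (adjusted p = 0.0447), but the rise did not pass when any 1 of the 8 livers was left out (0.70 to 0.86, adjusted p 0.0515 to 0.116). Agonist-treated MCD livers after hepatectomy read 5.20, 4.95, 4.61 and 5.20, all below the untreated ones, a change of -0.70 (95% interval -1.21 to -0.19, adjusted p = 0.197). A further Stat3 probe, dimmer and closer to the start of the transcript, gave -0.82 (adjusted p = 0.0799) for the diet under agonist and 0.46 (adjusted p = 0.407) for hepatectomy on MCD diet, neither of which passed.

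Socs1 encodes an inhibitor of the Janus kinases that interferons induce most strongly. On standard diet at baseline it read -1.06, -2.19, -1.36 and -2.31 without agonist and 2.34, -0.90, -0.14 and -0.56 with it. The treated livers were all higher, and 1 of them, replicate 1, was higher than any other liver in the series. Socs1 rose by 1.91 ± 0.56 (adjusted p = 0.0384), 3.76-fold. Without replicate 1 of the treated group the change was 1.19 (adjusted p = 0.195), and the call was also lost without replicate 2 or 4 of the untreated (1.76 and 1.72) or replicate 3 of the treated group (2.02).

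On MCD diet at baseline Socs1 read -1.31, -1.91, -1.66 and -0.96 without and -0.55, -1.0, -1.87 and -1.44 with agonist, groups that overlapped (0.25 ± 0.56). Between the diets under agonist the change was -1.40 (adjusted p = 0.0906), and without replicate 2 of the standard-diet agonist group the fall passed (-1.76, adjusted p = 0.0476). After hepatectomy it read -2.51, -2.41, -2.42 and -2.37 on MCD diet with agonist and -2.18, -1.67, -2.19 and -0.45 on standard diet with agonist, and replicate 1 on standard diet without agonist stood out at 1.04. Hepatectomy with agonist on standard diet lowered it by 1.80 (SE 0.56, adjusted p = 0.0453). That fall was 1.09 on the log2 scale without replicate 1 at baseline and did not pass there (adjusted p = 0.197), nor without replicate 3 at baseline (-1.91) or replicate 1, 2 or 3 after hepatectomy (-1.62, -1.79 and -1.62). Without the 2 livers that stand apart, an alternative chosen after seeing the data, the fall was -2.20 (adjusted p = 0.0112). This leaves out replicate 4 after hepatectomy, the highest Socs1 value of its group, which widens the fall by itself.

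Socs3 encodes the inhibitor that STAT3 itself induces and that binds gp130, and it is the usual transcript read-out of IL-6 signalling. On standard diet at baseline it read 4.63, 3.69, 2.48 and 2.99 without and 6.08, 5.36, 4.38 and 4.20 with agonist. The groups overlapped through 1 untreated liver, and Socs3 rose by 1.56 ± 0.46 (adjusted p = 0.0396), 2.95-fold. The call was lost without replicate 2, 3 or 4 of the untreated (1.64, 1.24 and 1.41) and replicate 1 or 2 of the treated group (1.20 and 1.44).

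MCD livers read 2.84, 2.36, 2.70 and 4.05 without and 2.36, 2.05, 3.03 and 2.25 with agonist. Under agonist no MCD liver reached the lowest standard-diet liver, and Socs3 fell with the diet by 2.59 on the log2 scale (SE 0.46, adjusted p = 0.000317), or 6.0-fold. That fall passed under every alternative. Without agonist the diet change was -0.46 ± 0.46 (adjusted p = 0.479). The interaction was -2.13 ± 0.65 (adjusted p = 0.0328). It did not pass without any 1 of 7 livers (-2.07 to -1.77), namely replicate 3 or 4 on standard diet, 4 on MCD diet, 1 or 2 on standard diet with agonist, and 2 or 4 on MCD diet with agonist.

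After hepatectomy all groups had Socs3 between 1.86 and 3.66. Standard-diet livers with agonist read 2.62, 2.36, 2.72 and 3.66, all below their baseline group, and Socs3 fell by 2.17 (SE 0.46, adjusted p = 0.00565), 4.49-fold, a call kept under every alternative. The other hepatectomy changes were -0.92 ± 0.46 on standard diet and 0.18 ± 0.46 on MCD diet with and without agonist. In MCD livers without agonist, 3 read 3.44 to 3.62 and replicate 3 read 2.10.

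Of 8 tested ligand genes of the family, Ebi3 and Il27, which encode the 2 subunits of interleukin-27, were the ones that passed anywhere. Lif and Osm, the genes of leukaemia inhibitory factor and oncostatin M, did not pass the filter on dim probes and were not tested. Ebi3 rose on MCD diet by 1.67 (adjusted p = 0.000386) and with agonist on standard diet by 1.15 (adjusted p = 0.0280), fell with agonist on MCD diet by 1.74 (adjusted p = 0.00131), and had an interaction of -2.89 (adjusted p = 0.000346). Without replicate 1 of the standard-diet agonist group 0 of the 8 ligand genes passed for the agonist on standard diet, where 2.25% of all genes did. Il27 fell by 1.0 with the diet and rose by 1.45 with agonist on MCD diet. Of 6 other receptor and Janus kinase genes, Il11ra1 fell with the diet at baseline (-0.67, adjusted p = 0.0280) and Jak3 rose with hepatectomy on MCD diet (1.09, adjusted p = 0.0371).

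Among 6 other STAT genes, Stat5b, the growth hormone STAT, fell with MCD diet at baseline by 0.91 without (adjusted p = 0.00254) and 0.75 with agonist (adjusted p = 0.0158), and after hepatectomy with agonist by 0.76. Stat2, an interferon STAT, rose by 0.82 with agonist on standard diet at baseline. Under agonist Stat2 fell with the diet, by 0.86 at baseline and 0.80 after hepatectomy, and with hepatectomy, by 0.93 on standard and 0.88 on MCD diet. Stat6, the STAT of interleukin-4, fell by 0.84 with agonist on standard diet at baseline (adjusted p = 0.0204), by 0.58 with MCD diet without agonist and by 0.78 with hepatectomy on standard diet. Without replicate 1 of the agonist group 0 of these 6 STAT genes and 0 of the 12 feedback inhibitors named next passed for the agonist on standard diet, where 2.25% of all genes did. Of 12 other feedback inhibitors, Socs2 (1.23, adjusted p = 0.0225) and the phosphatase gene Ptpn2 (0.98, adjusted p = 0.0355) rose with agonist on standard diet. Cish, a STAT5-induced inhibitor, fell by 2.33 with MCD diet under agonist (adjusted p = 0.000613) and by 1.43 with agonist on MCD diet (adjusted p = 0.0311).

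Of 24 tested acute phase genes, the hepatocyte response to IL-6, 6 rose and 0 fell with agonist on standard diet at baseline (25% against 6.52% of all genes, median 0.98), among them Saa2, serum amyloid A, by 3.88 (adjusted p = 0.00487), Steap4 by 2.80 (adjusted p = 0.00354) and Apcs by 2.50 (adjusted p = 0.00128). With agonist on MCD diet 1 rose and 0 fell (4.17% against 13.3%, median 0.17). Between the diets under agonist 9 fell and 0 rose (37.5% against 15.2%, median -0.77), with Steap4 at -3.87, Saa2 at -3.82 and Saa1 at -3.59. Without agonist MCD diet raised 2, Apcs (3.76) and Lcn2 (5.08), and lowered Fga, 12.5% of the list against 26% of all genes. The interaction was below 0 for all 6 acute phase genes in which it passed, 25% of the list against 11.1%, with Lcn2 at -5.18 and Steap4 at -4.22. Without replicate 1 of the standard-diet agonist group 5 rose with agonist, and 6 fell and 1 rose with diet under agonist (median -0.32), while without its replicate 2 these were 6, 7 and 0 (median -0.67).

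After hepatectomy against baseline 7 acute phase genes rose on standard diet (Saa2 by 3.59, Lcn2 by 4.36) and 10 on MCD diet (Lrg1 by 1.90, Cp by 1.13), with 0 falling in either (29.2% and 41.7% of the list against 13.7% and 9.43% of all genes). Without the 2 livers that stand apart 5 rose on standard diet (median 0.17 against 0.35 with them). With agonist 0 rose, and 1 fell on standard and 2 on MCD diet (4.17% and 8.33% against 7.34% and 10%), where Saa1 on standard diet was at -2.57 (adjusted p = 0.0403). Socs3 did not rise in the comparisons in which 7 and 10 of these genes did.

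Of 13 regulatory STAT3 targets, 1 rose with agonist on standard diet, Cebpd, by 2.28 (adjusted p = 0.0102), and 3 fell with agonist on MCD diet, Fos by 2.57, Birc5 by 2.49 and Myc by 1.40, which is 7.69% and 23.1% of the list against 6.52% and 13.3% of all genes. Without replicate 1 of the standard-diet agonist group 0 of the 13 passed for the agonist on standard diet. Under agonist MCD diet lowered 4 and raised 1 (38.5% against 15.2%), with Fos at -5.21 (adjusted p = 1.62e-06), Bcl3 at -2.22, Junb at -2.03 and Pim1 at -1.77. Without agonist it raised 5 and lowered 2 (53.8% against 26%), with Ccnd1 at 3.18, Myc at 1.89 and Timp1 at 3.60, genes of the cell cycle and of matrix turnover, and Pim1 at -2.75. Of 9 upstream cytokine genes the interaction passed in 4 (44.4% against 11.1%), all below 0: Ccl2 (-5.37), Tnfaip3 (-4.07), Tlr4 (-2.73) and Il1b (-1.95).

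**Figure D5:**
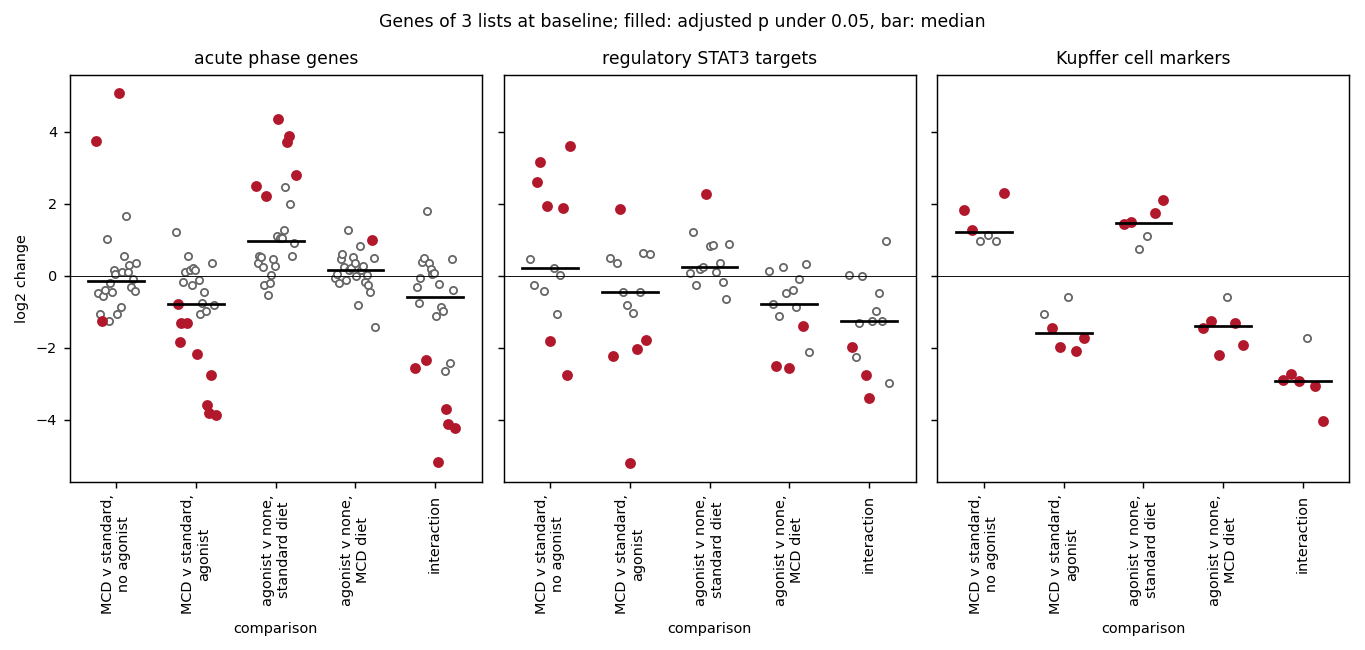
Log2 change of the tested genes of 3 lists (panels) in the 5 baseline comparisons, 1 point per gene, filled where the adjusted p was under 0.05, with the list's median as a bar. Acute phase genes have a median of 0.98 for the agonist on standard diet and -0.77 for MCD diet under agonist, and Kupffer cell markers have medians of 1.46 and -1.59.

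Marker genes of other cell types also differed between the groups. The share of all genes that passed stands in brackets after each count. Of 6 tested Kupffer cell markers (Cd163 was not tested), 4 rose with agonist on standard diet (6.52%) and 5 fell with agonist on MCD diet (13.3%). With MCD diet under agonist 4 fell (15.2%), and the interaction passed in 5 (11.1%), all below 0, Vsig4 at -4.04. Without replicate 1 of the standard-diet agonist group 2 of the 6 markers rose with agonist on standard diet (2.25%). Their summed level was 5.33 to 6.14 on standard diet at baseline, 6.80 to 7.45 with agonist, 6.55 to 8.03 on MCD diet and 5.61 to 6.60 on MCD diet with agonist. After hepatectomy on standard diet, where Il6 rose, all 6 rose (13.7%), and their sum was 6.50 to 8.67, or 6.50 to 7.64 without replicate 1. Of 9 recruited macrophage markers 7 rose there too (13.7%), 5 without the 2 livers that stand apart (7.77%). With MCD diet at baseline 6 of the 9 rose (26%). The 9 stellate cell and fibroblast markers summed to 6.13 to 6.50 on standard and 7.55 to 8.57 on MCD diet at baseline, and the 6 tested T and NK cell markers to 6.13 to 7.23 and 4.09 to 4.38. With hepatectomy on MCD diet, where Stat3 rose, the sum of 8 tested neutrophil markers went from 2.52 to 4.59 at baseline to 5.80 to 7.53. The 7 hepatocyte markers summed to 11.98 to 12.64 on standard diet at baseline and 11.48 to 11.64 on MCD diet. The part of cell composition in the changes of the 9 genes was not tested.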

How the data were processed

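RNA of 32 whole livers was labelled with Cy3 and hybridised to Agilent arrays of 62976 spots, per the labels' protocols. The deposited scanner files hold linear intensity, background-subtracted by Feature Extraction 10.7.3.1, per the file headers. A deposited table holds log2 values, judging by their range, and limma is named, per the submitters' processing notes. Its columns were set against the arrays' mean signal minus background by rank: 16 of 32 fitted best the array of another group (r 0.994 to 0.998 at the best array, 0.871 to 0.941 at the labelled one), MCD diet being exchanged with standard diet plus agonist. It was used only as an alternative, with each column at its best array, and, its 2 sets having medians of 6.53 to 6.55 and 7.05 to 7.06, not for hepatectomy comparisons. Its centring stays unknown.

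Tests ran on the log2 processed signal after each array's 75th percentile was subtracted, without control spots (3671) and outlier spots (5010, 0.264%), averaged per probe. Probes well above background on all 4 arrays of a group entered (30139 probes, 21730 genes), and the brightest probe stood for its gene. One limma fit over 8 groups (R 4.3.3, limma 3.58.1), with Benjamini-Hochberg adjustment at 0.05, gave 14 comparisons. The procedure was tested on simulated data. Bounds ("at least") set the bright group's mean against a floor for each dim array, the lowest value well above background or the probe's own if larger.

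Named genes are the 9 members and, of each other list, up to 4 called genes with the smallest adjusted p, plus the 3 genes most like each member over the arrays. The members and lists were chosen with earlier results of these data known. The sample titles give a group and a number for each liver, and livers were treated as separate animals. Alternatives were normexp background correction (offset 50), median and quantile scaling, dim probes kept, a gene's probes averaged, every probe singly, outlier spots kept, only the groups compared, a replicate block, the deposited table, and each liver left out. With every probe tested singly, a gene was still scored on its brightest probe.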

Additional observations from a re-analysis of the deposited data

Results flagged for a closer look

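In 72 sets of 4 livers, 1 gene in 1 group each, 7 had a lowest or highest liver whose gap to the nearest other, as a share of the set's range, was above Dixon's critical value. Chance gives about 1 in 20 such sets. Replicate 4 after hepatectomy on standard diet with agonist was far below its group for Lifr, at 2.41 (others 5.33 to 5.61), and far above it for Osmr, at 1.71 (others -0.63 to -0.27). Replicate 1 after hepatectomy on standard diet was high for Socs1, at 1.04 (others -1.83 to -1.49). Osmr was also high in replicate 1 on standard diet with agonist at baseline, at 2.40 (others 0.39 to 0.72), and in replicate 1 on MCD diet after hepatectomy, at 1.51 (others 0.17 to 0.36). Jak1 was low in replicate 1 on standard diet at baseline, at 3.15 (others 3.98 to 4.06), and Socs3 in replicate 3 on MCD diet after hepatectomy, at 2.10 (others 3.44 to 3.62).

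The agonist's change differed between the diets at baseline for Osmr (-2.57), Il6 (-2.30), Socs3 (-2.13) and Il6st (-1.26), by the test of the interaction itself.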

How the results depend on the processing

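Of the 24 member values that passed, 21 kept their direction under every alternative run, and 7 also kept their call: Lifr with diet at baseline without and with agonist, Socs3 with diet under agonist and with hepatectomy on standard diet with agonist, Il6st with agonist and with hepatectomy under agonist on MCD diet, and the Osmr interaction. With 4 livers a group and signals such as that of Il6 near background, many calls lie near the threshold. The cause of the changes below was not tested. Of 90 values that never passed, 40 changed sign under an alternative, the largest being 0.652 in size.

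The number of the 9 genes that passed moved by over 1.5 times as follows, with the share of all genes that passed in brackets. For MCD diet at baseline without agonist it went from 3 (26%) to 1 in the deposited table (19.4%). With agonist it went from 5 (15.2%) to 3 in that table (7.46%) and in the fit of the compared groups only (5.75%). For the agonist at baseline on standard diet it went from 3 (6.52%) to 0 without the filter on dim probes (2.35%) and with only the compared groups (1.23%). On MCD diet it went from 1 (13.3%) to 2 after quantile normalization (11.2%). For the interaction at baseline it went from 4 (11.1%) to 2 in the deposited table (6.34%) and with only the compared groups (7.46%). For MCD diet after hepatectomy with agonist it went from 1 (8.23%) to 0 when probes were averaged (9.07%) and with only the compared groups (11.4%). Without agonist it went from 0 (11.5%) to 1 when the 2 livers that stand apart were left out (14.2%), an alternative chosen after seeing the data. For hepatectomy on standard diet it went from 1 (13.7%) to 2 under normexp (21.1%), Il6st and Il6ra in place of Il6. On standard diet with agonist it went from 3 (7.34%) to 1 without the filter (3.92%) and with only the compared groups (5.87%). On MCD diet it went from 1 (9.43%) to 0 under normexp (5.91%), median scaling (7.83%), no filter (5.16%) and averaged probes (8.65%). On MCD diet with agonist it went from 2 (10%) to 1 under normexp (38.2%). Keeping outlier spots moved no count by that much. Nor did testing every probe singly, but there each gene was still scored on its brightest probe. That setting therefore could not show how a gene's other probes differ.

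Leaving out each liver in turn, the count ran from 1 to 3 for MCD diet at baseline without and 3 to 5 with agonist, from 0 to 4 for the agonist on standard diet, from 2 to 4 for the interaction, and from 0 to 1 for MCD diet after hepatectomy without and with agonist. For hepatectomy it ran from 1 to 2 on standard diet without and with agonist, was 0 in all on MCD diet, and ran from 1 to 2 there with agonist. The share of all genes that passed moved in such fits too. For the agonist on standard diet it was 6.52% with all livers and 2.25% without replicate 1 of the agonist group.

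Under normexp Il6 turned sign for MCD diet at baseline (-0.35), the agonist on MCD diet (0.29), hepatectomy on MCD diet with agonist (-0.22) and the interaction (0.16). Il6st turned sign without replicate 4 on standard diet at baseline, for MCD diet at baseline (-0.077, other livers left out up to 0.41) and for hepatectomy on standard diet (-0.25, up to 0.24). Both passed under normexp alone, at 0.88 (adjusted p = 0.0115) and 0.75 (adjusted p = 0.0457), not in the fit reported. Median scaling moved the median of all genes from -0.13 to 0.23 for MCD diet at baseline, from 0.14 to -0.20 for the agonist on MCD diet and from 0.18 to -0.35 for the interaction.

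Same-numbered livers did not deviate together (48 pairs, r from -0.205 to 0.441, 11 over 0.1), so the numbers do not pair the livers. With a replicate block the count for hepatectomy on MCD diet went from 1 (9.43% of all genes) to 0 (9.67%), and no other count moved by over 1.5 times.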

Other observations

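Genes whose level followed each member most closely over the 32 livers, by Pearson r, are given as a description, since livers of a group share their diet and treatment and arrays share a slide. For Lifr they were Tspan33 (0.959), Scp2 (0.942), a peroxisomal sterol carrier, and Stat5b (0.925). For Osmr they were the inflammatory caspase gene Casp4 (0.888), the Toll-like receptor gene Tlr2 (0.855) and Mb21d1 (0.842), the older symbol of the DNA sensor cGAS. For Socs3 they were the neutrophil chemokine gene Cxcl1 (0.793), Myd88 (0.791) and Tifa (0.772), and for Stat3 the acute phase gene Lbp (0.793), Qsox1 (0.769) and Khsrp (0.749). Il6 ran closest to Rab3b (0.855) and the macrophage genes Msr1 (0.847) and Cd300e (0.846). Socs1 ran closest to the interferon genes Irf1 (0.75) and Ifi47 (0.747) and to Atp7a (0.747). Jak1 was nearest to Ascc3 (0.853), Il6st to Map7d1 (0.816), and Il6ra to Fbxo31 (0.665) and to Pck1 (0.662), the gene of a gluconeogenic enzyme.

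Among the members themselves the closest pairs over the same livers were Osmr with Socs1 (r = 0.628), Socs1 with Socs3 (r = 0.596) and Osmr with Stat3 (r = 0.584).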
